A study of Homo sapiens with 6 samples.

Results

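The genes described here carry a Notch signal from the cell surface to the nucleus: the sheddases ADAM10 and ADAM17, the gamma-secretase subunits NCSTN, APH1A and APH1B, and the nuclear genes RBPJ, MAML1, MAML2 and MAML3. They were taken by name, as the rows of the deposited count table whose Ensembl identifiers map to these 9 symbols, out of 61541 genes in the table. All 9 were found and all 9 passed the filter on low counts, along with 14176 tested genes in total. The table compares 3 libraries of MDA231-LN, short for MDA-MB-231-D3H2LN, with 3 of the parental line MDA-MB-231. MDA-MB-231 is a human triple-negative breast cancer line, and D3H2LN is known as a derivative that carries luciferase and was isolated from a metastatic lymph node of a mouse. Per the labels, both lines were kept in the same high-glucose medium with 10% serum and received no treatment, and RNA was taken with the same column kit. Lymph node origin, passage in mice and the luciferase insertion cannot be told apart in this comparison, since each kind of cell is represented by 1 line. The title of the study places it in a question about JAGGED-1, a Notch ligand, and spread to lymph nodes.

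Notch receptors are released by cutting. After a ligand on a neighbouring cell pulls on the receptor, ADAM10 (or, in some settings, ADAM17) sheds its outer part, and gamma-secretase then cuts the remaining stub within the membrane. The freed intracellular domain enters the nucleus and binds the DNA-binding protein RBPJ, and a Mastermind-like protein (MAML) docks onto that pair and recruits transcriptional coactivators. The other gamma-secretase subunits are not analysed here.

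The libraries held 17661542 to 18882719 counted fragments in MDA231-LN and 16461578 to 19171017 in the parental line. Values are CPM, counts divided by the library size after scaling with the trimmed mean of M values (TMM), and means are given ± SD over 3 libraries. "Rose", "fell" and "passed" refer to the edgeR quasi-likelihood test with Benjamini-Hochberg adjustment over all 14176 tested genes, at an adjusted p under 0.05. Whether replicate libraries derive from separate cultures is not stated, so the p-values reflect the spread among these libraries alone, and that spread may be technical. Markers of a mesenchymal breast cancer line were strong in both: VIM was at 1883 to 2125 CPM in MDA231-LN and 1059 to 1117 CPM in the parental line, and CD44 at 981 to 1009 CPM in MDA231-LN and 519 to 535 CPM in the parental line. The epithelial cadherin gene CDH1 was at 0.388 to 0.461 CPM in MDA231-LN and 0.0609 to 0.321 CPM in the parental line. The epithelial gene EPCAM was detected in both, at 13.4 to 17.7 CPM in MDA231-LN and 11.6 to 15.3 CPM in the parental line. The hormone receptor gene ESR1 stayed at or under 1.11 CPM in every library. At this low level it rose, with 54 counts over the MDA231-LN libraries and 9 over the parental ones (edgeR adjusted p = 0.00403). PGR had 0 counts in MDA231-LN and 1 in the parental line.

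Of the 9 genes, 7 fell and 2 rose in MDA231-LN. Over all tested genes 62.8% passed in either direction, 31.2% lower and 31.6% higher in MDA231-LN. The median log2 fold change of the 9 genes was -0.56, beside 0.02 over all tested genes. The libraries of the lines did not overlap for any of the 9, while the same held for 66.6% of all tested genes. Both genes that fell at least 2-fold, NCSTN and MAML2, are on different chromosomes; 7.53% of all tested genes fell that far. The genes that rose were RBPJ and MAML3. In bulk RNA from a culture, fewer cells carrying a transcript and less of it per cell cannot be told apart.

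**Figure D1:**
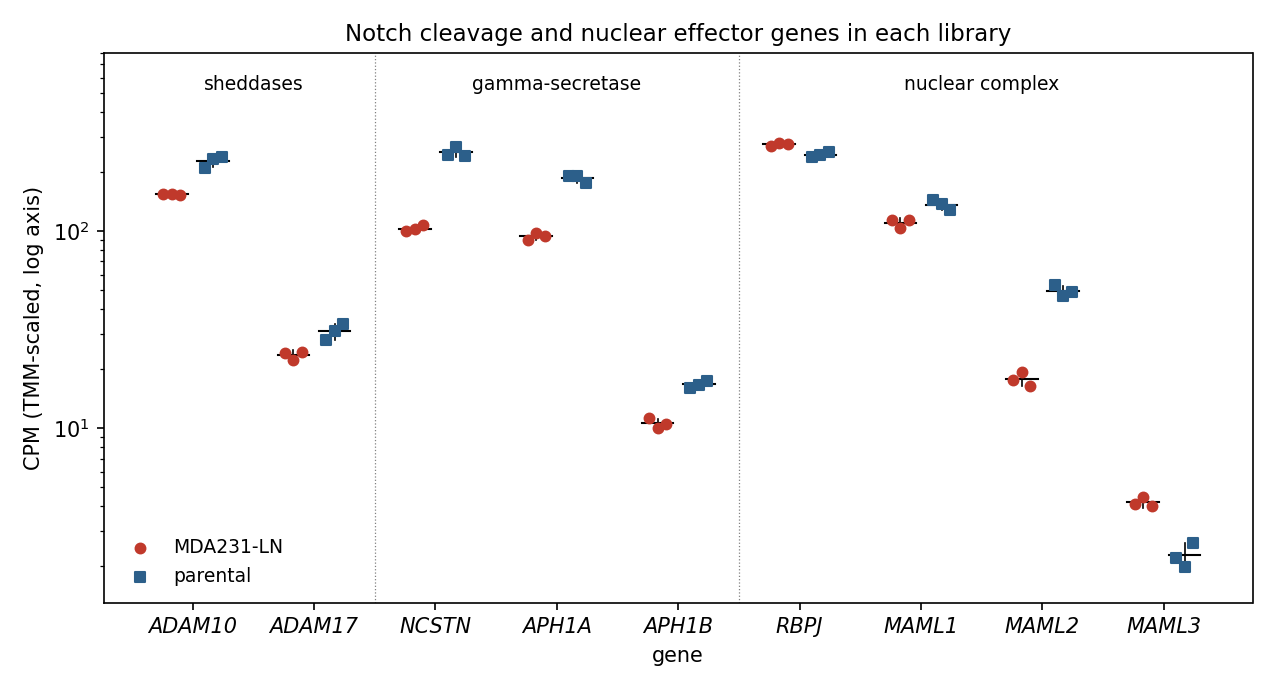
CPM of each gene in each library, on a log axis. Circles are MDA231-LN, squares the parental line, horizontal lines the means and vertical lines the SD over 3 libraries; ADAM10, ADAM17, NCSTN, APH1A, APH1B, MAML1 and MAML2 lie lower in MDA231-LN, RBPJ and MAML3 higher, with no overlap between the lines.

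ADAM10, the main protease for ligand-dependent shedding of Notch receptors, had 154.5, 153.1 and 152.9 CPM in MDA231-LN, against 208, 232 and 238 CPM in the parental line. The 3 MDA231-LN libraries were nearly level, and all lay below the lowest parental library. ADAM10 fell 1.47-fold, with a log2 fold change of -0.56 ± 0.06 (SE) and an adjusted p of 5.08e-09 (edgeR quasi-likelihood). ADAM17, better known for releasing tumor necrosis factor and ligands of the epidermal growth factor receptor, was far less abundant. It had 24.1, 22.1 and 24.3 CPM in MDA231-LN, against 28.03, 31.1 and 33.8 CPM in the parental line. It fell 1.32-fold (log2 fold change -0.40 ± 0.10, SE; edgeR adjusted p = 0.00103). ADAM10 lies on chromosome 15 from 58588809 to 58749791 and ADAM17 on chromosome 2 from 9488486 to 9556732 of GRCh38, both on the minus strand. Of the exonic bases of ADAM17, 35.9% lie inside another annotated gene, mainly IAH1 on the other strand; for ADAM10 the share is 17.8%. Reads there touch more than 1 gene and were left out of the counts.

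NCSTN encodes nicastrin, the large gamma-secretase subunit that gates substrates by their shed ends. It had 99.5, 102 and 107 CPM in MDA231-LN, against 244, 267 and 240 CPM in the parental line. Every MDA231-LN library was at less than the level of any parental library, with no value between 107 and 240 CPM. NCSTN fell 2.43-fold, with a log2 fold change of -1.28 ± 0.06 (SE; edgeR adjusted p = 5.11e-16). APH1A, a multi-pass subunit that scaffolds the assembly of the complex, had 89.9, 98.2 and 93.9 CPM in MDA231-LN, against 190, 191 and 174 CPM in the parental line. It fell 1.97-fold (log2 fold change -0.98 ± 0.06, SE; edgeR adjusted p = 1.85e-13), just short of 2-fold. APH1B encodes the alternative form of the same subunit, which takes the place of APH1A in a separate set of complexes. It was at 11.2, 10.0 and 10.4 CPM in MDA231-LN, against 16.0, 16.6 and 17.4 CPM in the parental line. APH1B fell 1.58-fold (log2 fold change -0.66 ± 0.13, SE; edgeR adjusted p = 5.87e-05). All 3 gamma-secretase genes were thus lower in each MDA231-LN library than in any parental library. NCSTN lies on chromosome 1 from 160343316 to 160358952 and APH1A on chromosome 1 from 150265399 to 150269580 of GRCh38. APH1B is on chromosome 15 from 63276018 to 63309126. No other annotated gene overlaps NCSTN or APH1B, while 33.3% of the exonic bases of APH1A lie inside C1orf54, which had 10 counts over the MDA231-LN libraries and 23 over the parental ones.

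RBPJ, the DNA-binding partner of the Notch intracellular domain and a repressor in its absence, had 270.1, 281 and 277 CPM in MDA231-LN, against 238, 242 and 252 CPM in the parental line. The libraries did not overlap, but the gap between the lines was small. RBPJ rose 1.13-fold (log2 fold change 0.18 ± 0.05, SE; edgeR adjusted p = 0.00531). Against a minimum fold of 1.2 it did not pass (edgeR glmTreat, adjusted p = 0.942). MAML1, the first described of the human Mastermind-like coactivators, had 114, 103 and 114 CPM in MDA231-LN, against 144, 137 and 127 CPM in the parental line. It fell 1.23-fold (log2 fold change -0.30 ± 0.06, SE; edgeR adjusted p = 0.000166), and it too did not pass against a minimum fold of 1.2 (edgeR glmTreat, adjusted p = 0.191). ADAM17 also missed that stricter test (edgeR glmTreat, adjusted p = 0.062), so that 5 of the 7 decreases and 1 of the 2 increases passed it. Of all 14176 tested genes, 3080 passed it as lower in MDA231-LN and 3324 as higher.

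MAML2, a coactivator gene known from its fusion with CRTC1 in salivary gland tumors, moved furthest. It had 17.4, 19.2 and 16.4 CPM in MDA231-LN, against 53.0, 47.0 and 48.9 CPM in the parental line. MAML2 fell 2.81-fold (log2 fold change -1.49 ± 0.09, SE; edgeR adjusted p = 2.42e-13). MAML3, the least abundant of the 9 genes, went the other way. Its counts were 80, 81 and 78 in MDA231-LN and 36, 31 and 49 in the parental line, or 4.10, 4.49 and 4.01 CPM in MDA231-LN and 2.19, 1.96 and 2.62 CPM in the parental line. MAML3 rose 1.85-fold (log2 fold change 0.88 ± 0.26, SE; edgeR adjusted p = 0.0039), with the widest error of the group at these low counts. Of the exonic bases of MAML3, 55.7% lie inside other annotated genes, MGST2 on the other strand among them, so the gene was counted over the remainder only; MGST2 itself had 594 counts over the MDA231-LN libraries and 578 over the parental ones. RBPJ lies on chromosome 4 from 26163455 to 26435131 and MAML3 on chromosome 4 from 139716753 to 140154184. MAML1 is on chromosome 5 from 179732822 to 179777283 and MAML2 on chromosome 11 from 95976598 to 96343195, with 17.4% of the exonic bases of MAML2 inside other annotated genes. The authors counted whole gene bodies, introns included, so long genes may hold unspliced fragments. Among the long genes are MAML3, MAML2, RBPJ and ADAM10, which span 437432, 366598, 271677 and 160983 bases. The share of unspliced fragments was not tested. Processed copies of RBPJ elsewhere in the genome had at most 2 counts over a line, and reads that fit more than 1 place were not counted.

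Promoters of the genes with the largest decreases, and the RBPJ promoter that holds the RBPJ motif, are shown to give the sequence around these starts. RefSeq entries (GRCh38.p14), each running from 250 bases before a transcription start to 50 bases after it, were found for 8 of the 9 genes, 12 promoters in all. They were searched for TGGGAA, the core of the motif that RBPJ binds, on both strands (TTCCCA on the other). RBPJ has several of these windows. The RBPJ window at chr4:26319496-26319795 held 2 matches, 1 on each strand, beginning 115 and 72 bases before the start and marked in capitals. No match was in the other 11 windows, including the remaining RBPJ windows and those of NCSTN, APH1A and MAML2. Among all 35116 RefSeq promoters of this length, 24.0% held at least 1 match and 3.8% at least 2. The GC share was 64.0% in the RBPJ window with the matches and 62.7% in that of NCSTN. It was 62.3% in that of APH1A and 61.3% in that of MAML2. MAML2 had the fewest CpG pairs of these 4 windows (13, beside 31, 26 and 25 in RBPJ, NCSTN and APH1A). All are given 5′ to 3′ on the strand of the gene.
RBPJ, chr4:26319496-26319795, plus strand: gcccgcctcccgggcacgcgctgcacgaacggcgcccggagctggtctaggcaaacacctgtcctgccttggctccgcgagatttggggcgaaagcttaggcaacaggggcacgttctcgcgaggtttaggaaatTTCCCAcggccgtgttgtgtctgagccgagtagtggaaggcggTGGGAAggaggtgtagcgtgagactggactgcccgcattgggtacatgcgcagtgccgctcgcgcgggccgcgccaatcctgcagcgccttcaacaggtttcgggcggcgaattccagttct
NCSTN, chr1:160343133-160343432, plus strand: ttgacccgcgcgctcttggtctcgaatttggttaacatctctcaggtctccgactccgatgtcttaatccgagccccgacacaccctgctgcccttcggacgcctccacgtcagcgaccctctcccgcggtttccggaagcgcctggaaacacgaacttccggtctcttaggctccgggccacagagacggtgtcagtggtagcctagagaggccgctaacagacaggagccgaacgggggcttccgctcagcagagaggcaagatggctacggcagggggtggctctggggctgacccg
APH1A, chr1:150268967-150269266, minus strand: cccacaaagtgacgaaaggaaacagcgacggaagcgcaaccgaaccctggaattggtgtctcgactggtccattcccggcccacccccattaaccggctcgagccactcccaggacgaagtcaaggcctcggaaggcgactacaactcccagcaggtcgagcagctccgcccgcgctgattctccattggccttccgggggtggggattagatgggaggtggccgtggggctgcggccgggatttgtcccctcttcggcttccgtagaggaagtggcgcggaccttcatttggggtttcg
MAML2, chr11:96343146-96343445, minus strand: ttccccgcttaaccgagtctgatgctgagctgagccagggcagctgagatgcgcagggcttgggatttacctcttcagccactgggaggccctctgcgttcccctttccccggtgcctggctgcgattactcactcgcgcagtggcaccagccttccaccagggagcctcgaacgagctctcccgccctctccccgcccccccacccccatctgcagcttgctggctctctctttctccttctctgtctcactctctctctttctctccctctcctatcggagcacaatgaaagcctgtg

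Between genes, levels were compared as CPM per kilobase of exonic sequence not shared with another gene, a scale on which intronic fragments still count. In MDA231-LN the order of these levels was APH1A (40.6 ± 1.79), RBPJ (29.8 ± 0.59), NCSTN (24.6 ± 0.97), MAML1 (18.5 ± 1.02) and ADAM10 (11.55 ± 0.07). ADAM17 (3.41), MAML2 (3.01), APH1B (1.92) and MAML3 (1.35) followed, and the libraries of ADAM17 and MAML2 overlapped on this scale. In the parental line the order of levels per kilobase was APH1A (79.8 ± 4.01), NCSTN (60.0 ± 3.43), RBPJ (26.4 ± 0.78), MAML1 (22.9 ± 1.42) and ADAM10 (16.99 ± 1.17). There MAML2 (8.45) stood above ADAM17 (4.49), APH1B (3.03) and MAML3 (0.73), with no neighbours in the order overlapping. RBPJ was thus above NCSTN in every MDA231-LN library and below it in every parental library, per kilobase. RBPJ spans 271677 bases and NCSTN 15637, and the share of intronic fragments in either was not tested.

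Within a library the ratio of related genes does not depend on scaling. MAML1 had 6.53, 5.36 and 6.93 counts for each count of MAML2 in MDA231-LN, against 2.72, 2.92 and 2.60 in the parental line. MAML2 in turn had 4.25, 4.28 and 4.09 counts for each count of MAML3 in MDA231-LN, against 24.1, 23.9 and 18.6 in the parental line. The difference in mean log2 ratio was 1.18 for MAML1 to MAML2, -1.20 for MAML1 to MAML3 and -2.38 for MAML2 to MAML3 (MDA231-LN minus parental). The libraries of the lines did not overlap in any of these MAML ratios. For the scaffold pair the shift was smaller: APH1A had 8.01, 9.78 and 9.0 counts for each count of APH1B in MDA231-LN, against 11.9, 11.5 and 10.0 in the parental line, a difference in mean log2 ratio of -0.32. ADAM10 had 6.40, 6.92 and 6.29 counts for each count of ADAM17 in MDA231-LN, against 7.43, 7.46 and 7.04 in the parental line, a difference in mean log2 ratio of -0.16. Each of these 5 ratios had p = 0.1 in a two-sided exact permutation test over 3 against 3 libraries, also after Benjamini-Hochberg adjustment over the 5, which is the smallest p this design allows and misses the threshold.

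**Figure D2:**
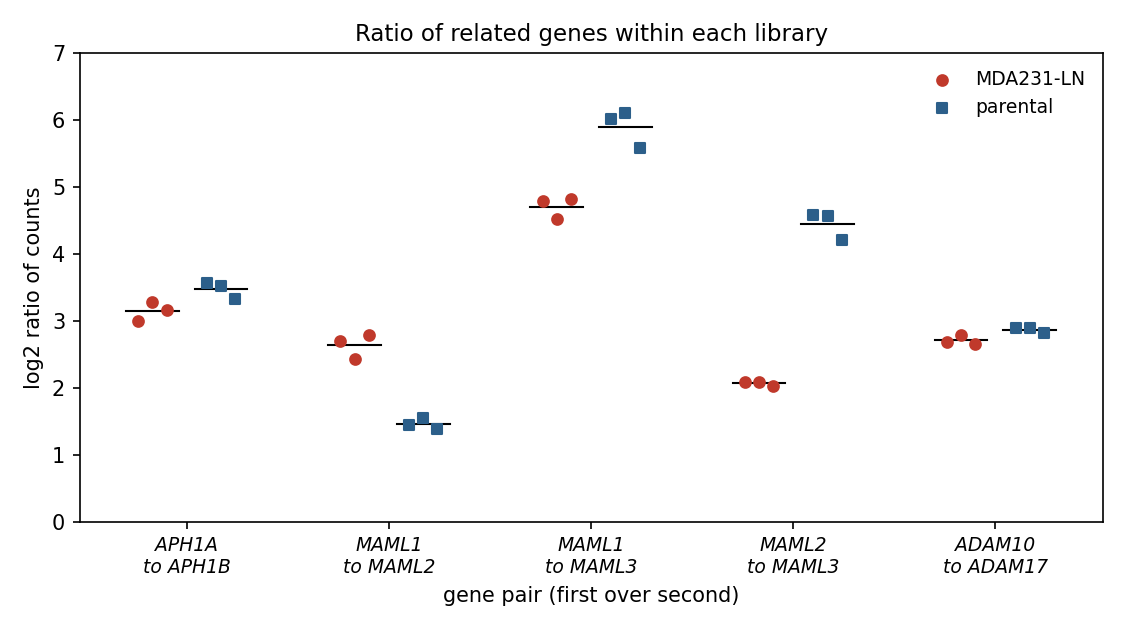
Log2 ratio of counts of related genes within each library, with 1 point per library and a line at the mean. Circles are MDA231-LN and squares the parental line; MAML2 to MAML3 shows the widest gap, with means of 2.07 in MDA231-LN and 4.45 in the parental line.

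The chromosomal surroundings of the genes differed in how they moved. For each gene, the log2 fold changes of the tested genes whose midpoints lie within 5 Mb of its own, leaving out the 9 genes themselves, were summarised, as a description with no test. Around NCSTN 88 genes had a median log2 fold change of -0.86, with 67 lower and 8 higher in MDA231-LN (76.1% and 9.09%). Around APH1A 144 genes had a median of -0.87, with 111 lower and 10 higher (77.1% and 6.94%); these windows on chromosome 1 do not overlap. NCSTN minus the median of its window was -0.42 on the log2 scale, and 12 of the 88 neighbours had a lower fold change. For APH1A this difference was -0.11, with 61 of 144 neighbours below it. Around MAML2, on chromosome 11, 26 genes had a median log2 fold change of -0.74, 19 of them lower and 1 higher, and 2 had a lower fold change than MAML2. The genes with the 3 largest decreases thus lie where most tested neighbours fell as well. Copy number was not measured here, and its part in these values was not tested.

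The other decreases came from regions whose medians lay nearer to 0. The 67 genes around APH1B on chromosome 15 had a median log2 fold change of -0.34 and a mean of -0.14. Of these, 36 were lower and 11 higher in MDA231-LN (53.7% and 16.4%), so most tested neighbours fell there too. The 37 genes around ADAM10, in a window that overlaps that of APH1B, had a median of 0.04 (7 lower, 9 higher), and ADAM10 minus this median was -0.60 on the log2 scale. Its window median was 0.36 with 2 Mb on each side and turned to -0.10 with 10 Mb, and the mean in place of the median was 0.21. The 33 genes around ADAM17 had a median log2 fold change of 0.18 (4 lower, 15 higher), and ADAM17 minus this median was -0.58. The median there was 0.0802 with 2 Mb and 0.11 with 10 Mb, and the mean was 1.21. Around MAML1 the median of 68 genes was -0.03 (24 lower, 17 higher), and the mean turned to 0.26. Both genes that rose are on chromosome 4. The 16 tested genes around RBPJ had a median log2 fold change of 0.38, with a mean of 0.73, and 9 of them were higher in MDA231-LN; RBPJ minus this median was -0.20 on the log2 scale. The 25 genes around MAML3 had a median of 0.17 (3 lower, 11 higher), and 23 of them lay below MAML3.

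**Figure D3:**
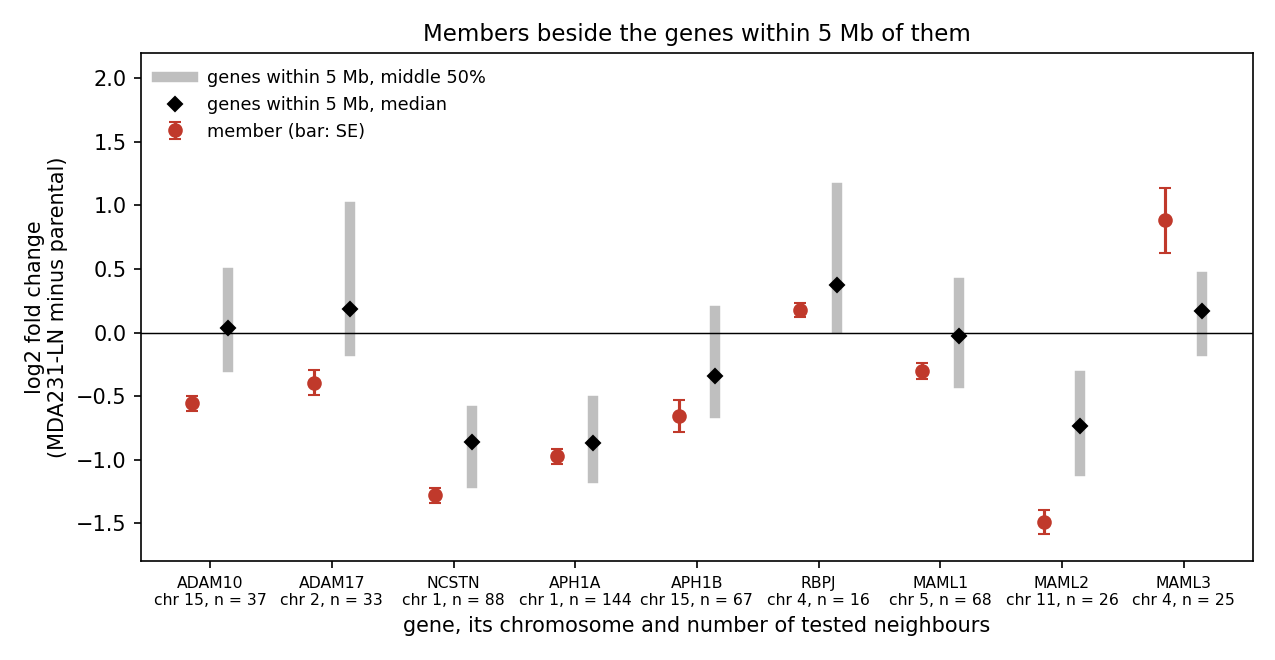
Log2 fold change (MDA231-LN minus parental) of each gene with its SE (circles), beside the median (diamonds) and middle 50% (grey bars) of the other tested genes within 5 Mb. The medians around NCSTN, APH1A and MAML2 lie between -0.87 and -0.74, and those around ADAM10, ADAM17 and MAML1 between -0.03 and 0.18; the direction around ADAM10 turned with a 10 Mb window and that around MAML1 with the mean.

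Genes that act on these proteins were described from lists of the pathway. The counts of each list stand beside 31.6% of all tested genes that rose and 31.2% that fell. Of 11 partners and inhibitors of the sheddases 9 could be tested, of which 3 rose and 4 fell (median log2 fold change -0.12). Tetraspanins of the TspanC8 group escort ADAM10 to the cell surface and steer its substrates. TSPAN33 rose 11.4-fold, with 18.9, 16.8 and 16.4 CPM in MDA231-LN against 1.52, 2.16 and 0.963 CPM in the parental line (log2 fold change 3.51 ± 0.20, SE; edgeR adjusted p = 4.97e-14). The other tested TspanC8 genes, FRMD8, RECK, RHBDF1 and RHBDF2 were named after their values were seen. TSPAN14 fell 1.52-fold, to 154 ± 7.49 CPM in MDA231-LN against 234 ± 8.57 CPM in the parental line. TSPAN5 rose 1.74-fold, at 97.7 ± 3.12 CPM in MDA231-LN and 56.2 ± 4.57 CPM in the parental line. TSPAN17 rose 1.35-fold, at 79.4 ± 6.13 CPM in MDA231-LN and 58.7 ± 4.73 CPM in the parental line, and TSPAN15 did not pass, at 22.9 ± 1.06 CPM in MDA231-LN and 21.7 ± 1.22 CPM in the parental line. FRMD8, which stabilises the iRhom partners of ADAM17 at the surface, fell 1.55-fold, to 40.1 ± 1.72 CPM in MDA231-LN against 62.0 ± 1.39 CPM in the parental line. RHBDF1, which encodes an iRhom, fell 1.24-fold, to 43.95 ± 1.34 CPM in MDA231-LN against 54.7 ± 2.29 CPM in the parental line. The other iRhom gene, RHBDF2, did not pass, at 55.7 ± 2.17 CPM in MDA231-LN and 60.4 ± 2.37 CPM in the parental line (edgeR adjusted p = 0.165). RECK, the inhibitor in this list that could be tested, fell 1.63-fold (edgeR adjusted p = 0.000302). It was at 8.51 ± 0.85 CPM in MDA231-LN and 13.9 ± 2.68 CPM in the parental line. TIMP3, a secreted inhibitor of both sheddases, was not measured, since 100% of its exonic bases lie inside another gene. Of 4 tested modulators of gamma-secretase 1 rose and 1 fell. BSG, a membrane glycoprotein found with the complex, was at 669 ± 6.08 CPM in MDA231-LN and 528 ± 60.8 CPM in the parental line, a 1.27-fold increase (log2 fold change 0.34 ± 0.06, SE; edgeR adjusted p = 3.07e-05). GSAP, which encodes gamma-secretase activating protein, fell just under 2-fold, at 2.12 ± 0.41 CPM in MDA231-LN and 4.22 ± 0.29 CPM in the parental line (edgeR adjusted p = 0.00186); 61.6% of its exonic bases lie inside another gene. Without parental replicate 2, and also with upper-quartile scaling, 2 modulators rose.

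Of 15 genes listed as coregulators of RBPJ, 14 could be tested. Of these, 2 rose and 6 fell, with a median log2 fold change of -0.16. Over all tested genes 31.6% rose and 31.2% fell, a background that also applies to the turnover list below. KAT2B, a histone acetyltransferase recruited with the Notch and MAML complex, had 25.97, 27.8 and 28.6 CPM in MDA231-LN, against 70.3, 64.1 and 65.8 CPM in the parental line. It fell 2.43-fold (log2 fold change -1.28 ± 0.08, SE; edgeR adjusted p = 2.08e-13), and it was the 1 gene of this list with a change of at least 2-fold. HDAC1 and CTBP1, the 2 genes that rose, and KAT2A were named after their values were seen. HDAC1 rose 1.45-fold (edgeR adjusted p = 2.75e-09) and CTBP1 1.27-fold (edgeR adjusted p = 8.44e-05). KAT2A did not pass, at 112.4 ± 1.585 CPM in MDA231-LN and 123.1 ± 3.55 CPM in the parental line. With upper-quartile scaling the falling genes of this list numbered 3. Of 9 genes for turnover and sorting of Notch 7 could be tested, and 4 rose and 1 fell. Deltex genes, which encode ubiquitin ligases, moved both ways. DTX3 rose 4.54-fold, at 26.3 ± 2.68 CPM in MDA231-LN and 5.80 ± 0.69 CPM in the parental line (edgeR adjusted p = 1.5e-13). DTX4 rose 9.95-fold, with 149 counts over the MDA231-LN libraries and 13 over the parental ones, a low level in both (edgeR adjusted p = 1.69e-06). DTX2, the gene of this list that fell, named after its values were seen, was at 28.99 ± 2.26 CPM in MDA231-LN and 44.9 ± 4.57 CPM in the parental line, a 1.55-fold decrease (edgeR adjusted p = 1.56e-06). Without parental replicate 1 or without MDA231-LN replicate 1, 2 genes of this list rose.

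Lists of genes upstream and downstream are given by their counts, beside 31.6% of all tested genes called higher and 31.2% called lower. Of 6 tested ligands and receptors 4 rose and 2 fell (median log2 fold change 0.70), including JAG2 at 32.7 ± 3.41 CPM in MDA231-LN and 4.42 ± 0.64 CPM in the parental line, NOTCH3 at 5.45 ± 0.97 CPM in MDA231-LN and 2.38 ± 1.08 CPM in the parental line, and DLL1 with 254 counts over MDA231-LN and 3 over the parental libraries, a depth-scaled ratio of 75.5 (exact 95% counting interval 25.6 to 369, counting error only). JAG1, the ligand in the study's title, named after its values were seen, rose 1.16-fold, at 213 ± 6.76 CPM in MDA231-LN and 184.5 ± 2.76 CPM in the parental line (edgeR adjusted p = 0.00155). The falling genes of this list, also named after their values were seen, were NOTCH1 at 62.3 ± 6.66 CPM in MDA231-LN and 72.5 ± 7.74 CPM in the parental line, with overlapping libraries, and NOTCH2 at 283 ± 28.7 CPM in MDA231-LN and 336 ± 21.9 CPM in the parental line. They numbered 0 with upper-quartile scaling in edgeR, also 0 at an unadjusted p under 0.05, and 1 with DESeq2, without parental replicate 1 or without MDA231-LN replicate 3. Of 7 tested Hes, Hey and NRARP genes 5 rose and 2 did not pass (median log2 fold change 0.86), with HEYL at 2.91 ± 0.50 CPM in MDA231-LN and 0.80 ± 0.38 CPM in the parental line, HES7 at 3.26 ± 0.80 CPM in MDA231-LN and 0.93 ± 0.27 CPM in the parental line, and NRARP at 5.43 ± 1.18 CPM in MDA231-LN and 2.05 ± 1.39 CPM in the parental line. HES1, the most abundant of these targets, named after its values were seen, rose 1.81-fold (edgeR adjusted p = 2.75e-08). It was at 34.67 ± 1.385 CPM in MDA231-LN and 19.15 ± 1.81 CPM in the parental line. Of the 10 listed targets, HES5, HES6 and HEY2 could not be tested, and 100% of the exonic bases of HES6 lie inside another gene. Whether these lists differ from the cleavage and nuclear genes was not tested.

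**Figure D4:**
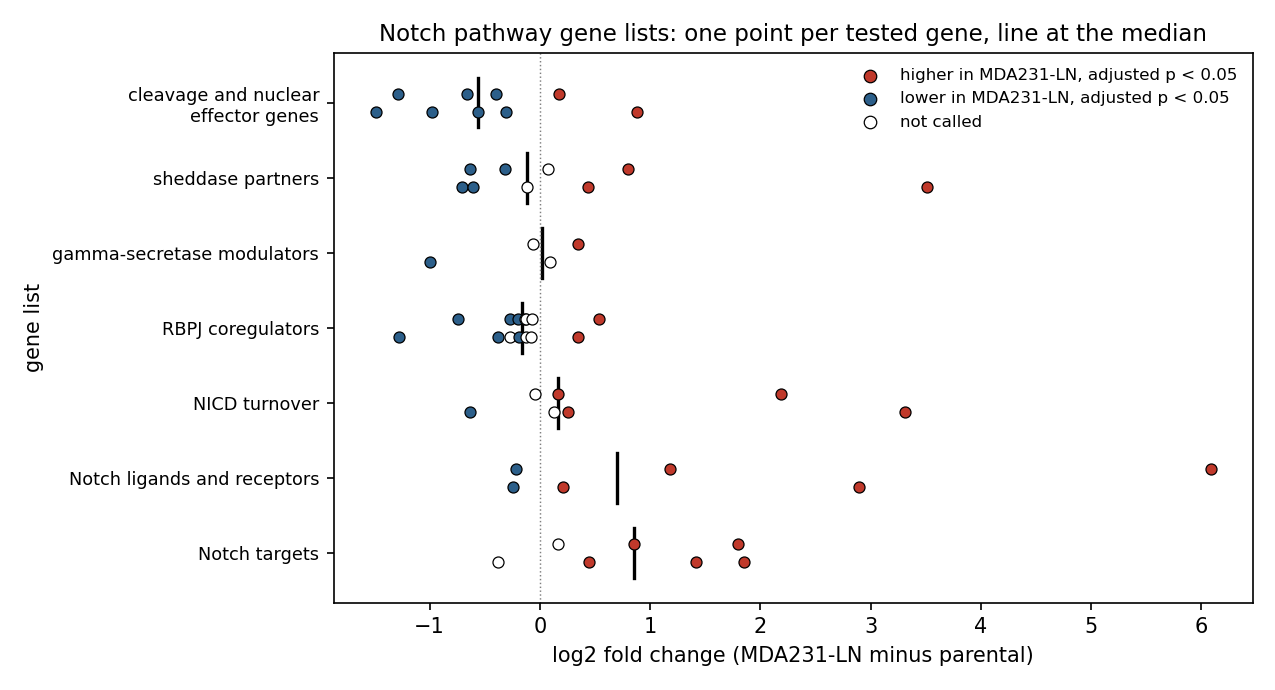
Log2 fold change (MDA231-LN minus parental) of every tested gene in each Notch pathway list, with a line at the list's median. Red points rose and blue points fell (adjusted p under 0.05), and white points did not pass; the medians run from -0.56 for the cleavage and nuclear genes to 0.86 for the targets, and the value of DLL1 at the far right depends on the fit's prior count.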

How the data were processed

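RNA of 6 libraries, 3 of MDA231-LN and 3 of parental MDA-MB-231, was prepared and sequenced by Novogene in paired ends of 150 bases, per the labels' protocols. Reads were aligned to GRCh38 with STAR, per the submitters' processing notes, with the version not given in the sources used here. The authors deposited raw counts per gene, made with featureCounts 2.0.1 on Ensembl release 105, per the file headers. The command there counts read pairs over whole genes, introns included, with no strand option and with the default settings, under which multi-mapping fragments, and those overlapping several genes, are not counted.

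Symbols were found for 61369 of 61541 genes. Exonic lengths came from GENCODE 29. Counts were scaled by TMM, filtered with filterByExpr and tested by quasi-likelihood in edgeR 4.0.16 (R 4.3.3), MDA231-LN minus parental, with Benjamini-Hochberg adjustment. The SE is the log2 fold change over the square root of its F statistic. DESeq2 1.42.0 and limma 3.58.1 (voom) were alternatives, besides RLE and upper-quartile scaling, no filter, 1 CPM in at least 3 libraries, omission of each library in turn, a replicate block, an adjusted p under 0.01 and glmTreat against 1.2-fold. Ratios used a prior count of 0.5 and scipy 1.17.1. The edgeR step was tested on simulated data. All 9 members were named, and from each other list up to 4 genes with the smallest adjusted p among those that passed and differed at least 2-fold, or else up to 2 with the smallest adjusted p. Members and lists were chosen with earlier results of these data known. Same-line libraries differed beyond sampling noise (chi-square per degree of freedom 3.73 to 8.47), so none was merged. Intervals cover counting error only.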

Additional observations from a re-analysis of the deposited data

How the results depend on the processing

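Over RLE and upper-quartile scaling, both filters, DESeq2, limma-voom, the replicate block and leaving out each library, all 9 genes kept their direction and their call. The median over the tested genes was 0.13 with upper-quartile scaling, against 0.02 with TMM, so small differences such as that of RBPJ are relative to this; RBPJ ranged from 0.15 to 0.29 (adjusted p 3.39e-05 to 0.0366) and MAML1 from -0.36 to -0.19 (adjusted p 1.03e-05 to 0.00999). Against 1.2-fold (glmTreat) 1 of the 9 genes was called higher and 5 lower, beside 3324 and 3080 of the 14176 tested genes. Over the table, 4482 genes were called higher and 4422 lower, or 5415 and 3603 with upper-quartile scaling.

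The labels number the libraries 1 to 3 in each line, but same-numbered libraries did not deviate together (correlations -0.05 to 0.00). With the replicate number as a block 2 members were called higher and 7 lower, as without it, and 4325 and 4266 genes over the table.

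Among the other lists, upper-quartile scaling gave 2 gamma-secretase modulators called higher, 3 RBPJ coregulators called lower and 0 ligands and receptors called lower (edgeR; also 0 at an unadjusted p under 0.05); DESeq2 gave 1 for the last. Leaving out each library gave 1 to 2 gamma-secretase modulators called higher, 4 to 8 coregulators called lower, 2 to 4 turnover genes called higher, 1 to 2 ligands and receptors called lower and 4 to 5 targets called higher. The differences in log2 ratio ran from -0.39 to -0.24 for APH1A to APH1B, from 1.11 to 1.29 for MAML1 to MAML2, from -1.35 to -1.10 for MAML1 to MAML3, from -2.50 to -2.32 for MAML2 to MAML3 and from -0.20 to -0.13 for ADAM10 to ADAM17; with 2 against 3 libraries the smallest p is 0.2.

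Window medians depended on the window. With 10 Mb on each side they were -0.10 around ADAM10 (reversed), 0.11 around ADAM17, -0.0681 around MAML1 and -0.92 around MAML2. With 2 Mb on each side they were 0.36 around ADAM10, 0.0802 around ADAM17, -0.75 around NCSTN, -0.0109 around MAML1, -0.88 around MAML2 and 0.11 around MAML3. With the mean in place of the median the values were 0.21 around ADAM10, 1.21 around ADAM17, -0.77 around NCSTN, -0.70 around APH1A, -0.14 around APH1B, 0.73 around RBPJ, 0.26 around MAML1 (reversed) and -0.68 around MAML2. The cause of these shifts was not tested. Depth limits MAML3 most, at 31 to 81 counts a library.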
